A study of Mus musculus with 73 samples.

Results

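The genes described here are the developmental transcription factor families of the array: every feature with a single gene symbol that names a Hox, Fox, Sox, Gata, Dlx, Lhx, Nkx, Pax or sine oculis homeobox gene, other than Sox9, Sox11, Gata3 and Foxc1. The rule uses names alone and no measured value. It found 51 features that measure 48 genes, of 9596 features and 6795 genes in all. They are 20 Hox genes (5 Hoxa, 7 Hoxb, 5 Hoxc and 3 Hoxd), 12 Fox, 6 Sox, 3 Gata, 2 Dlx, 2 Lhx, 2 Nkx genes and Six4, with no Pax gene. A further 8 features whose symbols begin with these letters lie outside the rule and were not used here. Foxk1, Nkx6-2 and Sox18 were measured by 2 features each and averaged, and every other member by 1. Nkx2-2 had no value on the reference arrays, so 47 members were tested there, 44 of them with a value on every array.

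Dual-channel spotted cDNA arrays were used, in which an RNA sample and a second RNA compete for each spot. In the first set, tumor or normal tissue of the mouse was set against a universal mouse reference RNA on 35 arrays, and each value is the log2 ratio of the sample over that reference. The prostate tumors (5 arrays) and the seminal vesicle tumors (6 arrays) came from C57BL/6 mice of the TRAMP line, in which the probasin promoter drives SV40 T/t-antigen in prostatic epithelium, and their normal counterparts (4 arrays each) from wild-type mice. The mammary tumors came from FVB mice with C3(1)/SV40 T/t-antigen and the lung tumors from FVB mice with CC10/SV40 T/t-antigen, with 4 arrays of each tumor and 4 of each wild-type normal tissue. In the second set, mammary tumors of 8 models were hybridised directly against normal mammary gland of the same strain. These were the p53-/- transplant model in Balb/c (5 arrays), p53fp/fp;WAP-cre (4) and Brca1 Co/Co;MMTV-cre;p53 (5), both in C57BL6/129sv, and, in FVB, MMTV-her2/neu (5), MMTV-myc (4), MMTV-ras (5), MMTV-PyMT (5) and C3(1)/SV40 T/t-antigen (5), called C3(1) below. Strain and site cannot be told apart beyond pairs of sites that share a strain, and the labels do not say whether the samples of a group came from separate animals, so the spread between them may in part be technical.

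Members of these families bind DNA through a homeodomain (Hox, Dlx, Lhx, Nkx, Six4), a forkhead domain (Fox), an HMG box (Sox) or zinc fingers (Gata). Hox genes lie in clusters in which gene order follows the order of expression along the body axis, and genes at the posterior end of the clusters pattern the urogenital tract. Adult epithelia and stroma keep part of the pattern of the embryonic region they came from, so that a Hox gene can mark prostate or seminal vesicle while a lung gene such as Foxf1 marks lung mesenchyme. In tissue pieces, fewer cells of a type and less RNA per cell cannot be told apart.

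The tumor and normal groups also differed in the makeup of the tissue, measured by marker genes. All 5 measured proliferation genes rose in tumors of every site. In prostate tumors 7 of 7 neuroendocrine and neuronal genes rose, with a mean log2 ratio of 2.19 to 3.07 per tumor array against -0.07 to 0.04 per normal array. In the same comparison 13 of 13 skeletal muscle genes, 8 of 9 smooth muscle genes, 9 of 9 adipocyte genes and 8 of 8 epithelial genes fell. In seminal vesicle tumors 6 of 7 fibroblast and matrix genes rose. In mammary tumors 9 of 9 adipocyte, 6 of 7 endothelial and 6 of 7 milk and luminal genes fell, and in lung tumors 7 of 7 endothelial and 5 of 7 fibroblast and matrix genes fell while 7 of 8 epithelial genes rose. The part of these shifts in the results below was not tested, except where values are given. Surfactant and other lung epithelial genes stood at a mean of 2.88 to 3.32 in lung tumors and 3.22 to 3.98 in normal lung. Spink1, the 1 measured gene of the prostate secretory list, read -0.08 to 0.20 in prostate tumors and 0.57 to 1.20 in normal prostate. It stood far higher in seminal vesicle tumors (3.30 to 5.83) and normal seminal vesicle (6.52 to 7.40), so it did not mark the prostate here. No gene of the seminal vesicle secretory list was measured.

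One member carries a caution that precedes its results. The feature named Hoxc6 followed Mfge8, the gene of a milk fat globule protein, almost value for value. The correlation across the 35 reference arrays was r = 0.991, with a median absolute difference of 0.118 log2 units against a range of 3.654 for the Hoxc6 feature. Across the 38 direct arrays r was 0.936. After the group means were subtracted the reference arrays still gave r = 0.798. The other Hoxc genes gave r of -0.01 (Hoxc4), 0.60 (Hoxc5), 0.29 (Hoxc8) and 0.12 (Hoxc9) with the Hoxc6 feature on the reference arrays, and the next gene in likeness, Dbi, gave 0.912. Over the 47 members the best match among the 6753 genes compared ran from 0.607 to 0.991 with a median of 0.815. Whether the spot carries Mfge8 sequence was not tested, and values of the Hoxc6 feature are given below beside those of Mfge8.

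**Figure D1:**
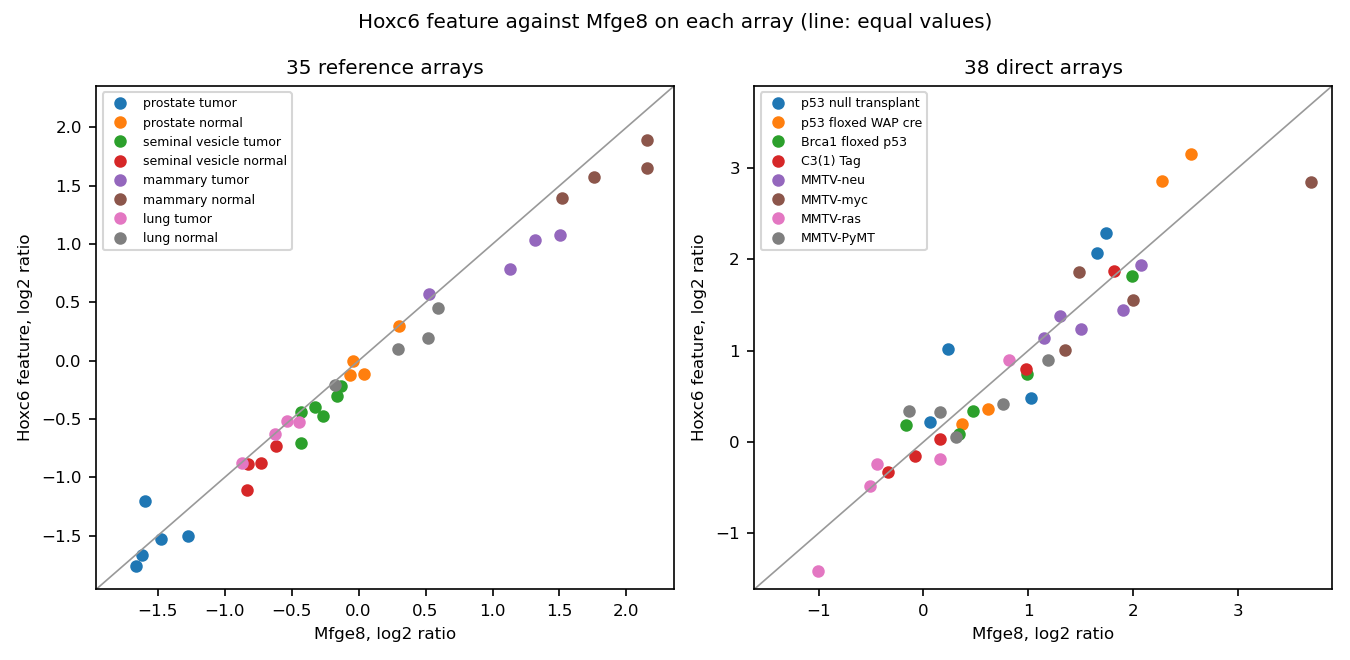
Log2 ratio of the Hoxc6 feature (vertical axis) against that of Mfge8 (horizontal axis) on the 35 reference arrays (left, sample over reference) and the 38 direct arrays (right, tumor over normal), 1 point an array, coloured by group. The grey line marks equal values, and the points lie along it with r = 0.991 on the left and 0.936 on the right.

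The level of the members differed among the 4 normal tissues for 33 of 47 by limma's moderated F test (adjusted p under 0.05, Benjamini-Hochberg over all genes), where 79.4% of all genes passed. Against the mean of the other 3 normal tissues, 21 members differed in normal prostate (12 higher, 9 lower), where 41.2% of all genes did (16.7% higher, 24.5% lower). In normal seminal vesicle 25 differed (15 higher, 10 lower; background 62.5%, of which 26.4% higher and 36.1% lower). In normal mammary gland 20 differed (4 higher, 16 lower; 48.6%, of which 27.2% higher and 21.4% lower), and in normal lung 17 (7 higher, 10 lower; 41.8%, of which 19.9% higher and 21.9% lower). The share of members called was near or below the share of all genes in each of them. Quantile normalization gave 16 calls in place of 25 in normal seminal vesicle.

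Several Hoxb genes were highest in normal seminal vesicle. Hoxb6 stood at 1.64, 2.15, 1.84 and 2.07 there, against values between -0.50 and -0.01 in the other normal tissues, a difference of 2.17 ± 0.15 (SE) log2 units (adjusted p = 9.673e-14). No array of another normal tissue reached its lowest value. Hoxb7, its neighbour in the cluster, was higher there by 1.52 ± 0.23, Hoxb13 by 1.59 ± 0.32 and Hoxb2 by 1.23 ± 0.16. Hoxb13, the most posterior gene of the cluster and known from prostate development, read 2.21, 1.61, 1.80 and 1.61 in normal seminal vesicle, and 0.84, 0.60, 1.24 and 1.36 in normal prostate. The normal mammary gland and lung read at most 0.15, so the order was seminal vesicle, prostate and then both of the others, which overlapped. Hoxd9 was also higher in the seminal vesicle (0.98 ± 0.18) and in the prostate (0.70 ± 0.18), and lower in the lung (-1.29 ± 0.18).

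Gata2, a zinc finger factor of blood, endothelium and urogenital tissue, stood at 2.60, 2.49, 2.77 and 1.78 in normal seminal vesicle and at 2.05, 1.24, 1.08 and 1.72 in normal lung. In normal prostate it read -0.22, 0.07, -0.07 and 0.29, and in normal mammary gland 0.02, -0.27, -0.01 and -0.13. The seminal vesicle and the lung overlapped with each other and lay above both other tissues on every array, and the seminal vesicle exceeded the mean of the other 3 by 1.93 ± 0.18 (adjusted p = 1.19e-10). Foxn1, known as the factor of thymic and hair follicle epithelium, was also higher in these 2 tissues than in the others, but with the lung above the seminal vesicle on every array. It read 1.39, 1.18, 0.94 and 0.89 in normal lung and 0.51, 0.82, 0.37 and 0.70 in normal seminal vesicle. The prostate and mammary values of Foxn1 lay between -0.27 and 0.22.

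Foxf1, a forkhead factor needed for lung mesenchyme and vessels, stood at 2.00, 0.85, 1.78 and 2.15 in normal lung, and no array of the other normal tissues exceeded 0.35. The difference was 1.83 ± 0.18 log2 units (adjusted p = 5.357e-10). Lhx8, a LIM homeodomain factor of the forebrain, palate and oocyte, was highest in normal prostate, at 2.83, 2.62, 2.34 and 2.06. Lhx8 reached at most 1.11 elsewhere, with 1 mammary array holding no value, and the difference was 1.85 ± 0.17 (adjusted p = 6.585e-10). Six4, a homeodomain factor of muscle and kidney development, was higher in normal prostate by 1.20 ± 0.17 and lower in normal mammary gland (-1.10 ± 0.17). Skeletal muscle genes averaged 3.65 to 4.57 in normal prostate and -0.19 to 3.41 in normal mammary gland. They averaged -0.10 to 0.11 in normal seminal vesicle and 0.19 to 0.48 in normal lung. The part of muscle in the Lhx8 and Six4 levels was not tested. The Hoxc6 feature was higher in normal mammary gland by 1.88 ± 0.12 and lower in normal seminal vesicle (-1.49 ± 0.12), where Mfge8 differed by 2.03 ± 0.14 and -1.50 ± 0.14.

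**Figure D2:**
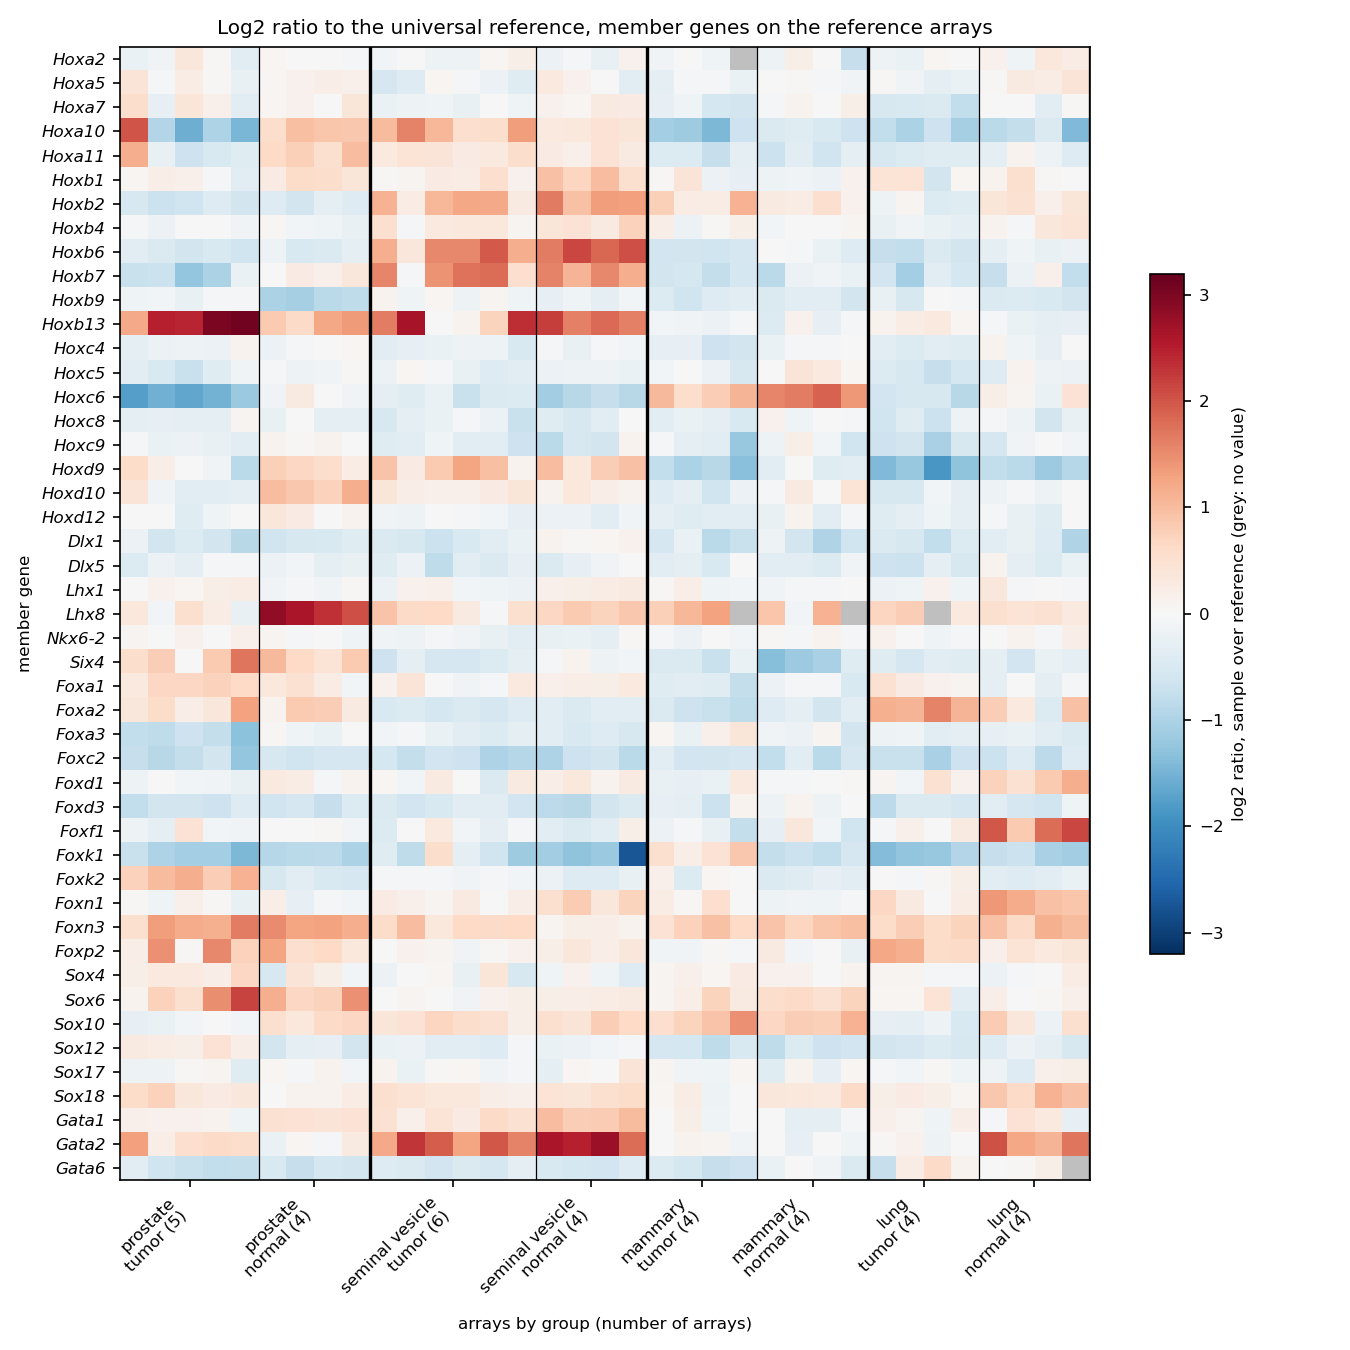
Log2 ratio to the reference RNA (colour, red for higher and blue for lower than the reference, grey for no value) of the 47 members tested (rows, by family) on the 35 reference arrays (columns, in 8 groups). Hoxb6 is red in both seminal vesicle groups, Lhx8 in normal prostate and Foxf1 in normal lung, and prostate tumor array 1 (first column) differs from the other prostate tumors in Hoxa10 and Hoxa11.

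In prostate tumors 21 of 47 members passed the test, 7 higher and 14 lower, where 61.4% of all genes passed (29.2% higher and 32.2% lower). The median change of the members was -0.06 and that of all genes -0.03 log2 units. The arrays of the groups did not overlap for 13 members, against 53.5% of all genes. Of the 20 Hox genes 9 fell and 2 rose, with a median of -0.21. All 3 Hoxd genes fell. Of the 12 Fox genes 2 rose and 2 fell, of the 6 Sox genes 2 rose and 1 fell, and of the 3 Gata genes 1 rose and 1 fell.

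Lhx8 fell the most. It read 0.33, -0.08, 0.52, 0.24 and -0.23 in prostate tumors, against 2.83, 2.62, 2.34 and 2.06 in normal prostate. Every tumor array lay below every normal array, and the mean was 4.95-fold lower (-2.31 ± 0.20, adjusted p = 2.744e-11). Over the reference arrays Lhx8 was most like Myh3, a skeletal muscle myosin (r = 0.935, a description over arrays that share groups). The skeletal muscle list averaged -0.15 to 0.11 in prostate tumors and 3.65 to 4.57 in normal prostate. In the mammary groups, the tumor arrays with muscle means of 1.47 and 2.17 read 1.06 and 1.28 for Lhx8, and the normal array with 1.92 read 1.11. The other mammary arrays with an Lhx8 value were tumor 1, normal 1 and normal 2. Their muscle means were 0.75, -0.19 and 0.07, and they read 0.75, 0.88 and -0.09 for Lhx8. Normal seminal vesicle, with muscle means of -0.10 to 0.11, read 0.66 to 0.86. The part of muscle in the Lhx8 result was not tested.

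Hoxb13 rose. Its values were 1.21, 2.48, 2.44, 3.01 and 3.09 in prostate tumors, against 0.84, 0.60, 1.24 and 1.36 in normal prostate. All tumors but array 1 lay above every normal array, and the mean rose 2.70-fold (1.43 ± 0.37, adjusted p = 0.00113). Among the arrays with neighbouring array numbers, which hold tumor 5 and normal 1 to 3, the difference was 2.19. Hoxb9, a more anterior gene of the same cluster, also rose (0.81 ± 0.09), while Hoxb7 (-0.98 ± 0.27) and Hoxb1 (-0.44 ± 0.17) fell. The Hoxb7 call ended when blocks of neighbouring array numbers entered the fit (-0.43), and the Hoxb1 call ended without normal 2, normal 3 or tumor 5 and with quantile normalization, with a value of -0.83 within the block.

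The posterior Hoxa and Hoxd genes fell. Hoxa10 read 2.00, -0.95, -1.56, -0.999 and -1.46 in prostate tumors, against 0.55, 0.97, 0.88 and 0.86 in normal prostate. Hoxa11 read 1.17, -0.24, -0.65, -0.48 and -0.39 in the tumors, against 0.65, 0.75, 0.51 and 0.99 in normal prostate. Hoxd10 read 0.42, -0.11, -0.33, -0.33 and -0.30 in the tumors, against 0.98, 0.86, 0.74 and 1.15 in normal prostate. In each of the 3 genes tumor 1 was the highest tumor, and for Hoxa10 and Hoxa11 it stood above all normal arrays while the other 4 tumors stood below all of them. The changes were -1.41 ± 0.39 for Hoxa10 (adjusted p = 0.002202), -0.84 ± 0.20 for Hoxa11 (adjusted p = 0.0005747) and -1.06 ± 0.13 for Hoxd10 (adjusted p = 1.04e-08). Without tumor 1 they were -2.06 for Hoxa10 and -1.17 for Hoxa11, and the Hoxa10 call ended when only the prostate arrays were fitted. Within the block of neighbouring array numbers Hoxa10 changed by -2.26. Hoxd9 (-0.59 ± 0.21) and Hoxd12 (-0.30 ± 0.10) also fell, and the Hoxd9 call ended without normal 1, without tumor 5 (-0.39) or with quantile normalization. With blocks of neighbouring array numbers in the fit Hoxd9 changed by -1.19 (-1.53 within the block), while the Hoxd12 call ended (-0.28, and -0.23 within the block).

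Hoxa10 and Hoxa11 are neighbours in the Hoxa cluster and factors of the uterus, vas deferens and other genital ducts. Over the 35 reference arrays they correlated at r = 0.902, and at 0.884 after the group means were subtracted. Hoxa11 and Hoxd10 correlated at 0.816 (0.785 after subtraction), whereas Hoxa10 and Hoxd9 went from 0.726 to 0.167 by that step. Prostate tumor 1, with 2.00 for Hoxa10, lay above the range of the seminal vesicle tumors, which was 0.53 to 1.58, and its Gata2 value of 1.30 lay inside theirs. Its Hoxc6 feature, at -1.76, lay below theirs, which ran from -0.71 to -0.21. Neuroendocrine and neuronal genes averaged 2.19 to 3.07 in the prostate tumors, tumor 1 among them, and -0.12 to 0.06 in seminal vesicle tumors. The likeness of tumor 1 to either group was not tested.

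The sequences just before the starts of these genes are shown because Hoxa10 and Hoxa11 moved together and because Foxk2 rose at every site and Lhx8 fell the most. Each is the 250 bases before the transcript start at the annotated 5′ end of the gene, 5′ to 3′ on the gene's strand, from RefSeq on GRCm38.p6, with CG dinucleotides in capitals.
Hoxa10: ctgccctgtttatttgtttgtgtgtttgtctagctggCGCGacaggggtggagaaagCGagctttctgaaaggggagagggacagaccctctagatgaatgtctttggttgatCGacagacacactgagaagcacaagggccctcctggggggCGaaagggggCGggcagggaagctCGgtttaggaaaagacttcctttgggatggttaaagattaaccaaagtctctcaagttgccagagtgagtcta
Hoxa11: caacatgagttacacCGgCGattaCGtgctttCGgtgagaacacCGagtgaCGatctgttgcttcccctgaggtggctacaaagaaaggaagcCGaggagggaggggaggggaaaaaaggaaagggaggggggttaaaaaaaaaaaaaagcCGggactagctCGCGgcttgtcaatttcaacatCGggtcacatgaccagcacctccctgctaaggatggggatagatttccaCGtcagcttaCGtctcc
Foxk2: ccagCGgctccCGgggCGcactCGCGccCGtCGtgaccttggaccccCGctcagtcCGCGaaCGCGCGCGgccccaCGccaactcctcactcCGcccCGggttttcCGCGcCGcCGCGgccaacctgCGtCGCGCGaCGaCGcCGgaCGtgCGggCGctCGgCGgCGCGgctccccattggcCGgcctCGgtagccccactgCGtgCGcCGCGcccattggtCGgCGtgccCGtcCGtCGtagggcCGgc
Lhx8: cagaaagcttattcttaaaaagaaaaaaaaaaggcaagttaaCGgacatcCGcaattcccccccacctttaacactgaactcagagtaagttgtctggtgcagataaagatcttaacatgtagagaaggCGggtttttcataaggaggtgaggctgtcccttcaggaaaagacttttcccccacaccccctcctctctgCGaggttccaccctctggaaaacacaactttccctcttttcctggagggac
The first lies at chr6:52240855-52241104 on the minus strand with 7 CG, and the second at chr6:52245811-52246060 on the minus strand with 13 CG. The Foxk2 sequence lies at chr11:121259737-121259986 on the plus strand with 48 CG, at percentile 99.9 of the 32851 promoters of the table, whose median was 6. The Lhx8 sequence lies at chr3:154330561-154330810 on the minus strand with 4 CG, at percentile 44.4. The letters CCAAT occurred 2 times in the Foxk2 window on either strand (33.8% of all promoters hold them) and in none of the other 3. The Gata motif AGATAA occurred once in the Lhx8 window (9.99% of all promoters), and TATAAA (12.4%) and the Hox and Pbx motif TGATNNAT (7.68%) in none of the 4. Hoxa10 has another annotated start, inside the gene, whose window is not shown. That window lies at chr6:52234940-52235189 with 20 CG (percentile 83.7), and it holds TATAAA and CCAAT 1 time each. RefSeq promoter sequences were at hand for 30 of the 48 members, with a median of 12.5 CG over 40 entries. These letters describe the windows and say nothing of binding.

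Among the Fox genes, Foxk2, a forkhead factor expressed in most tissues, rose without overlap. It read 0.74, 1.00, 1.16, 0.78 and 1.11 in prostate tumors, against -0.52, -0.35, -0.48 and -0.54 in normal prostate. The rise was 2.70-fold (1.43 ± 0.10, adjusted p = 3.586e-14), and the values were close together within both groups. The genes most like Foxk2 over the 35 reference arrays were Hdac2 (r = 0.928), Stmn4 (0.928) and Tubb5 (0.926). Foxa1, a pioneer factor of prostate epithelium, also rose (0.36 ± 0.12), though not without normal 4 (0.25), while Foxa3 (-0.79 ± 0.12) and Foxc2 (-0.29 ± 0.12) fell. Sox12, a SoxC gene of the nervous system, rose by 0.72 ± 0.09 and Sox18, an endothelial gene, by 0.34 ± 0.10, whereas Sox10, a neural crest and glandular epithelial factor, fell by 0.67 ± 0.15 on the log2 scale. The Sox18 call ended within blocks of array numbers (0.28). Gata2 rose by 0.63 ± 0.21 with tumor 1 at 1.30, the other tumors between 0.22 and 0.60 and normal prostate between -0.22 and 0.29, and the call ended without tumor 1 (0.46) or with array number blocks in the fit (0.32). Gata1, the erythroid factor, fell by 0.37 ± 0.11, a call that ended with quantile normalization, and its value was -0.59 within the block. Within the block Foxa3 changed by -1.20, and the Foxa1 call ended (0.28).

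The Hoxc6 feature was at -1.76, -1.53, -1.66, -1.50 and -1.20 in prostate tumors, against -0.12, 0.30, 0.00 and -0.11 in normal prostate. It fell 2.92-fold without overlap (-1.55 ± 0.13, adjusted p = 9.988e-12), and Mfge8 fell by 1.58 ± 0.16 on the log2 scale. Hoxc5 also passed (-0.33 ± 0.12), but its call ended without normal 4 or tumor 3, and its difference was 0.01 within the block of neighbouring array numbers. Without the Hoxc6 feature, 20 of 46 members passed in the prostate (7 higher, 13 lower).

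**Figure D3:**
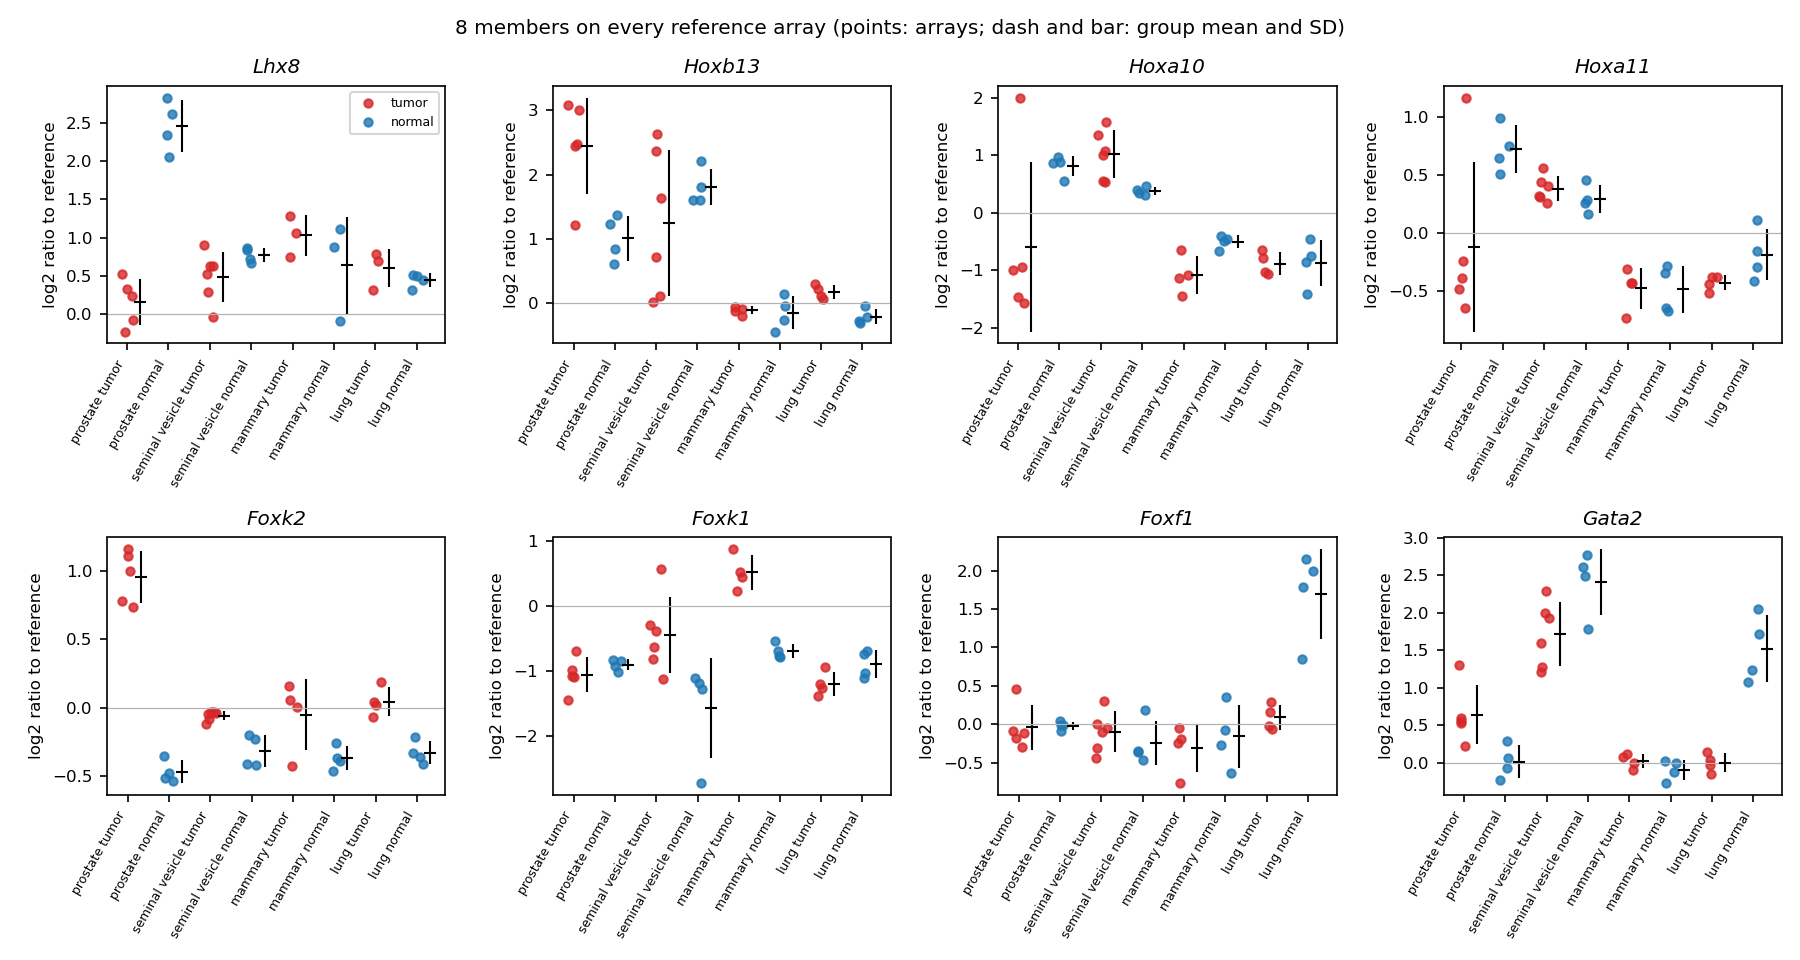
Log2 ratio to the reference RNA of 8 members on every reference array (points, red for tumor and blue for normal), with the group mean (dash) and SD (bar). Lhx8 and Foxf1 stand apart in 1 normal tissue each and Foxk2 in prostate tumors, while prostate tumor 1 stands above the other prostate tumors in Hoxa10 and Hoxa11 at 2.00 and 1.17.

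In seminal vesicle tumors 13 of 47 members passed, 4 higher and 9 lower, where 43.5% of all genes passed (23.3% higher, 20.2% lower). The median change was -0.11 for the members and 0.04 for all genes. The groups did not overlap for 10 members, against 33.2% of all genes. Of the 7 Hoxb genes, 3 fell (Hoxb6, Hoxb1 and Hoxb2) and none rose. Of the 20 Hox genes in all, 4 fell and 1 rose, and no Sox gene passed. No block of array numbers holds seminal vesicle tumors and normal arrays together, so array number and group cannot be told apart here, and the count fell to 6 with those blocks as a factor.

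Gata2 read 1.21, 2.29, 1.93, 1.27, 2.00 and 1.59 in seminal vesicle tumors, against 2.60, 2.49, 2.77 and 1.78 in the normal tissue. Normal 4 lay within the range of the tumors, and the fall was -0.69 ± 0.20 (adjusted p = 0.00624). Hoxb6 read 1.16, 0.36, 1.54, 1.54, 1.96 and 1.16 in the tumors, against 1.64, 2.15, 1.84 and 2.07 in the normal tissue, a fall of -0.64 ± 0.16 (adjusted p = 0.002209). Only tumor 5 lay within the normal range. Hoxb1, a hindbrain gene at the anterior end of the cluster, read 0.04, 0.08, 0.25, 0.23, 0.54 and 0.14 in the tumors, against 0.94, 0.69, 0.99 and 0.51 in the normal tissue (-0.57 ± 0.16, adjusted p = 0.004361). All tumors but array 5 lay below all normal arrays.

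Dlx1, a homeodomain gene of forebrain interneurons and jaw, fell without overlap. It read -0.46, -0.50, -0.69, -0.49, -0.34 and -0.21 in seminal vesicle tumors, against 0.11, 0.04, 0.05 and 0.15 in the normal tissue (-0.54 ± 0.14, adjusted p = 0.002773). Foxk1, a forkhead factor known from muscle progenitors, read -0.39, -0.81, 0.57, -0.30, -0.63 and -1.13 in the tumors, against -1.12, -1.28, -1.18 and -2.73 in the normal tissue. It rose 2.19-fold (1.13 ± 0.24, adjusted p = 0.0003239), but its features disagreed, at 1.55 and 0.10, and the feature used alone under the rule of 1 feature a gene did not pass. Without normal 4 the rise was 0.74.

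Of the others, Foxn3 rose by 0.48 ± 0.14 and Foxk2 by 0.26 ± 0.09 (adjusted p = 0.02555), and Gata1 (-0.49 ± 0.11), Foxn1 (-0.43 ± 0.12), Lhx1 (-0.26 ± 0.09), Hoxb2 (-0.46 ± 0.18) and Hoxa7 (-0.34 ± 0.13) fell. The Foxk2 call ended under centring (0.23), quantile normalization (0.14) and without normal 2 or normal 3, and those of Hoxb2 and Hoxa7 each ended when any of 5 arrays was left out. Hoxb2 came to 0.01 with array number blocks as a factor. With those blocks the calls of Foxk1, Gata2, Hoxb6, Gata1, Foxn3, Lhx1 and Foxk2 also ended. Those of Hoxb1 (-1.18), Dlx1 (-1.19), Foxn1 (-1.09), Hoxa7 (-0.93) and the Hoxc6 feature (1.05) did not end. The normal seminal vesicle arrays share their block with mammary tumor 4 alone, so these block-adjusted values cannot separate array number from group. With quantile normalization the calls of Hoxb1 (-0.38), Gata1 (-0.25), Foxn1 (-0.28), Hoxb2, Hoxa7, Lhx1 and the Hoxc6 feature (0.22) ended. The Hoxc6 feature rose by 0.48 ± 0.13 and Mfge8 by 0.46 ± 0.15, and without that feature 12 of 46 members passed (3 higher, 9 lower). Hoxb13 did not pass (-0.56 ± 0.35). Its tumor values split widely, at 1.64, 2.63, 0.01, 0.11, 0.71 and 2.36, against 2.21, 1.61, 1.80 and 1.61 in normal seminal vesicle.

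In mammary tumors 12 of 47 members passed, 3 higher and 9 lower, where 36.7% of all genes passed (16.6% higher, 20.1% lower). The median was -0.05 for the members and -0.02 for all genes. The groups did not overlap for 11 members, against 31.9% of all genes. No Hox gene rose and 7 of 20 fell, with a median of -0.29: 4 of 5 Hoxc genes, 2 of 3 Hoxd genes and Hoxa7. Adipocyte genes averaged 0.58 to 2.16 in mammary tumors and 3.52 to 3.87 in normal gland, and their part in these falls was not tested.

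Hoxd9, which with its paralogues Hoxa9 and Hoxb9 serves mammary gland growth in pregnancy, read -0.80, -1.01, -0.90 and -1.34 in mammary tumors, against -0.33, -0.01, -0.39 and -0.33 in normal gland. It fell 1.68-fold without overlap (-0.75 ± 0.23, adjusted p = 0.008605). Hoxd10 read -0.42, -0.32, -0.64 and -0.20 in the tumors, against -0.04, 0.28, 0.02 and 0.43 in normal gland (-0.57 ± 0.13, adjusted p = 0.0009827). Both Hoxd genes were thus below the reference RNA in every tumor. Among the Hoxc genes, Hoxc4 (-0.36 ± 0.10), Hoxc5 (-0.39 ± 0.13) and Hoxc8 (-0.34 ± 0.14) fell, with the Hoxc4 call lost within the block of array numbers (-0.28), the Hoxc8 call without any of 6 arrays and the Hoxc5 call without normal 2 or tumor 4. The Hoxc6 feature read 1.04, 0.57, 0.79 and 1.08 in the tumors, against 1.57, 1.65, 1.90 and 1.40 in normal gland. It fell by 0.76 ± 0.14 on the log2 scale (adjusted p = 5.619e-05), by 0.38 after quantile normalization, and Mfge8 fell by 0.78 ± 0.17.

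Foxk1 showed the largest rise. It read 0.52, 0.22, 0.45 and 0.87 in mammary tumors, against -0.77, -0.69, -0.78 and -0.55 in normal gland, and rose 2.32-fold (1.21 ± 0.26, adjusted p = 0.0003763). As in the seminal vesicle its features disagreed, at 2.23 and 0.20, and with 1 feature a gene the call ended. Six4 read -0.47, -0.46, -0.71 and -0.21 in the tumors, against -1.37, -1.17, -1.03 and -0.39 in normal gland (0.52 ± 0.21, adjusted p = 0.04729), with normal 4 inside the tumor range and the call lost without any of 6 arrays. Foxk2 rose by 0.32 ± 0.10, though not without tumor 1 (0.25). Hoxa7 (-0.47 ± 0.14), Gata6 (-0.40 ± 0.16) and Sox18 (-0.37 ± 0.11) fell. With array number blocks in the fit Hoxa7 (-0.35) and Foxk2 (0.29) no longer passed. Without any of 6 arrays Gata6 no longer passed, and with 1 feature a gene neither did Sox18 (-0.14). Without the Hoxc6 feature 11 of 46 members passed (3 higher, 8 lower).

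In lung tumors 20 of 47 members passed, 5 higher and 15 lower, where 36.5% of all genes passed (16.2% higher, 20.4% lower). The median was -0.21 for the members and -0.06 for all genes. The groups did not overlap for 18 members, against 34.4% of all genes. Of the 20 Hox genes 8 fell and 1 rose, with a median of -0.29, and 4 of 5 Hoxc genes fell. Of the 12 Fox genes 4 rose and 3 fell, and of the 6 Sox genes 2 fell.

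Foxf1, Gata2 and Foxn1, which stood high in normal lung, fell in its tumors. Foxf1 read -0.06, 0.15, -0.02 and 0.29 in lung tumors, against 2.00, 0.85, 1.78 and 2.15 in normal lung, and fell 3.04-fold (-1.60 ± 0.22, adjusted p = 4.657e-07). Gata2 read 0.04, 0.15, -0.16 and -0.02 in the tumors, against 2.05, 1.24, 1.08 and 1.72 in normal lung, and fell 2.87-fold (-1.52 ± 0.22, adjusted p = 1.719e-06). Neither gene overlapped between the groups, and both read near 0 in every tumor. Foxn1 read 0.66, 0.28, 0.00 and 0.24 in the tumors, against 1.39, 1.18, 0.94 and 0.89 in normal lung (-0.80 ± 0.13, adjusted p = 1.441e-05). Sox18, with Foxf1 a gene of vessels, fell by 0.70 ± 0.11, and its features read -1.29 and -0.12, of which the one at -0.12 did not pass when used alone. Endothelial genes averaged 0.48 to 0.84 in lung tumors and 1.72 to 2.43 in normal lung. Fibroblast and matrix genes averaged -1.46 to -1.15 in the tumors and -0.27 to 0.10 in normal lung, and the part of either in these falls was not tested.

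Of the 3 measured Foxa genes, factors of endoderm, Foxa1 and Foxa2 rose in lung tumors and Foxa3 did not pass (0.08 ± 0.13). Foxa2, a regulator of lung epithelium, read 1.14, 1.10, 1.59 and 1.08 in lung tumors, against 0.79, 0.30, -0.44 and 0.94 in normal lung. It rose 1.78-fold without overlap (0.83 ± 0.21, adjusted p = 0.001852), and by 0.55 without normal 3. Foxa1 rose by 0.41 ± 0.13 and Foxp2, a lung epithelial repressor, by 0.57 ± 0.22, with the Foxp2 call lost without any of 6 arrays and the Foxa1 call without tumor 1. Foxk2 rose by 0.38 ± 0.10 (adjusted p = 0.004064). Epithelial genes averaged 1.59 to 1.79 in lung tumors and 0.41 to 0.52 in normal lung, and their part was not tested.

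Among the Hox genes of the lung, Hoxa5, which is needed for normal lung development, fell by 0.39 ± 0.13 on the log2 scale, Hoxa7 by 0.48 ± 0.14, Hoxb2 by 0.58 ± 0.20, Hoxb4 by 0.43 ± 0.12, Hoxc4 by 0.31 ± 0.10, Hoxc5 by 0.40 ± 0.13 and Hoxc9 by 0.52 ± 0.19. Hoxb9 rose (0.29 ± 0.10). Of these, Hoxa7 and Hoxb4 kept their calls without any single array, and each of the other 6 lost its call without at least 1. Sox10 (-0.67 ± 0.16) and Foxd1 (-0.65 ± 0.14), a gene of kidney and lung stroma, also fell, and Dlx5 fell by 0.33 ± 0.13 with the call lost without any of 5 arrays. The Hoxc6 feature read -0.62, -0.52, -0.52 and -0.88 in lung tumors, against 0.19, 0.10, -0.21 and 0.45 in normal lung (-0.77 ± 0.14, adjusted p = 5.405e-05), and Mfge8 fell by 0.92 ± 0.17. Without that feature 19 of 46 members passed (5 higher, 14 lower).

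**Figure D4:**
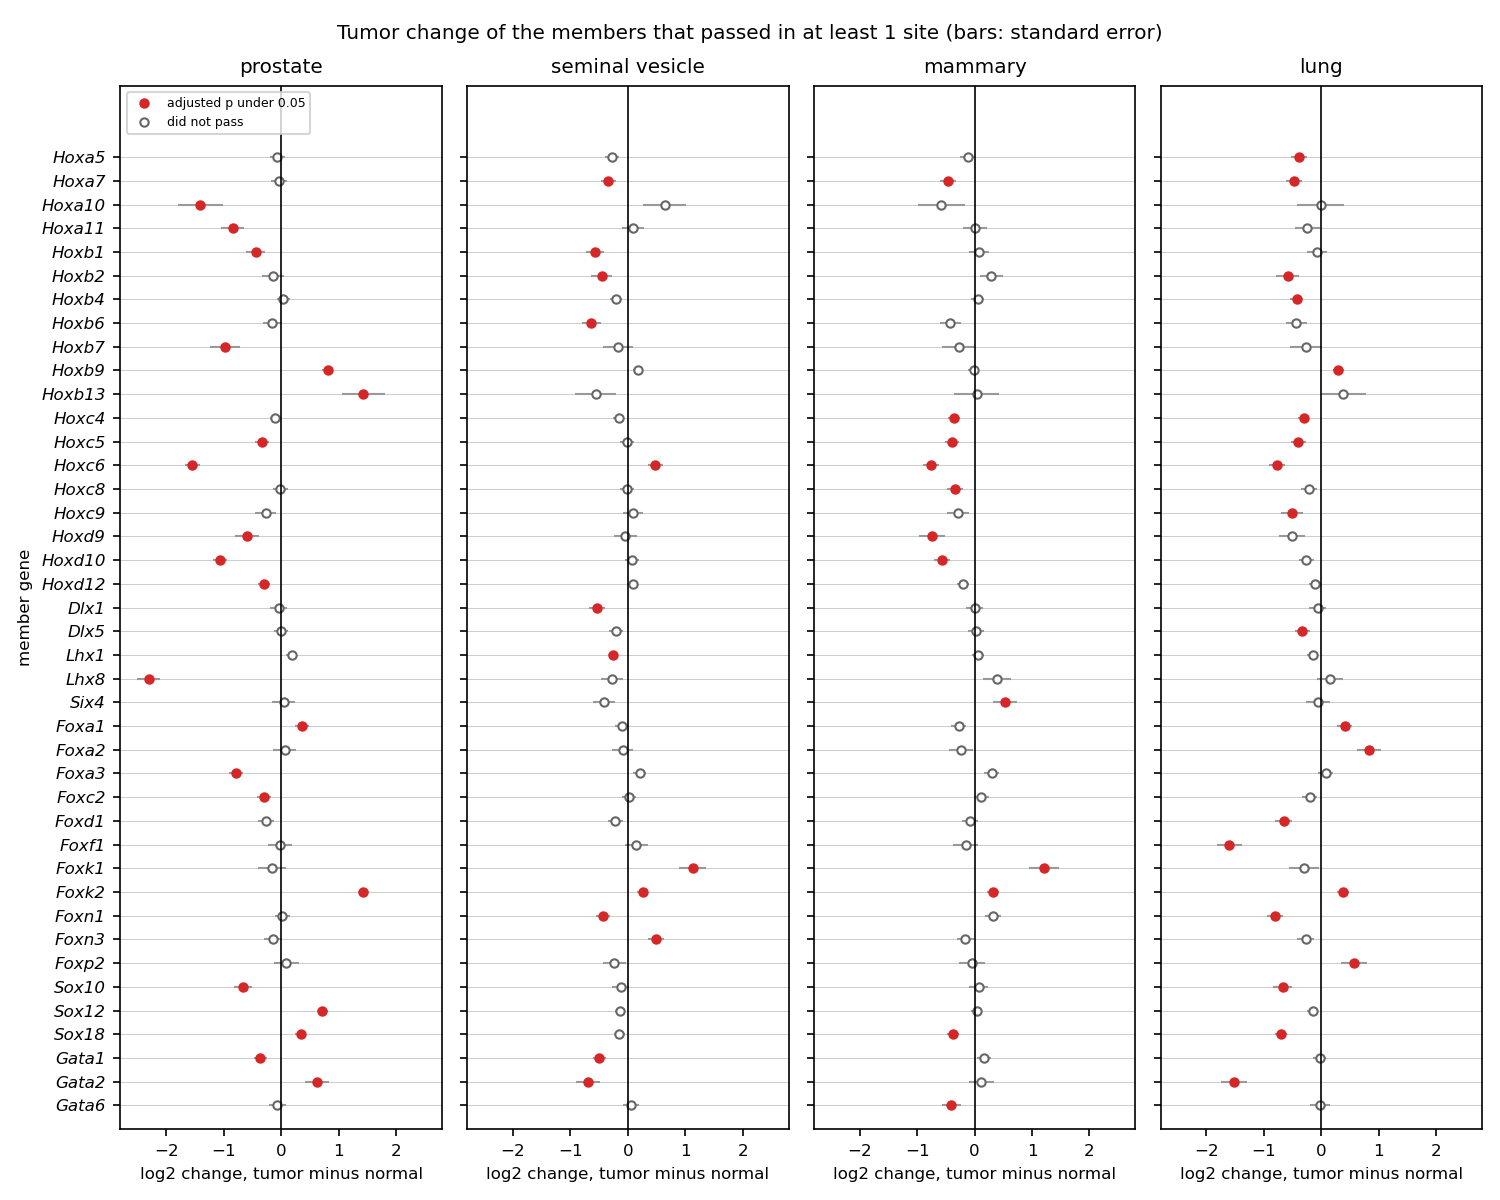
Log2 change, tumor minus normal, with its standard error (bar) for the 41 members that passed the test in at least 1 site (rows), in prostate, seminal vesicle, mammary gland and lung (panels), filled red where the adjusted p was under 0.05 and open where it was not. Foxk2 is filled to the right of 0 in all panels, and Foxf1 is filled in the lung alone, at -1.60.

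Across the sites, 6 members passed in none, 24 in 1, 11 in 2, 4 in 3 and 2 in all 4. Of the 6750 genes tested in every site, 12.9% passed in none, 28.9% in 1, 32.1% in 2, 19% in 3 and 7.04% in all 4, and 3.39% were higher in all 4. The members with no call were Foxd3, Hoxa2, Nkx6-2, Sox4, Sox6 and Sox17. Foxk2 rose in all 4 sites, and the Hoxc6 feature rose in seminal vesicle tumors and fell in the other 3. Hoxa7 and Hoxc5 each fell in 3 sites. Each Hoxc5 call ended without at least 1 array, as did the Hoxa7 call in seminal vesicle tumors. So did the Foxk2 calls in seminal vesicle and mammary tumors. The Hoxa7 call in mammary tumors ended with array number blocks in the fit. Gata2 and Sox18 rose in prostate tumors and each fell in 2 other sites, and with the Hoxc6 feature they were the 3 members called in both directions, as were 21% of all genes. Both rises in the prostate ended with array number blocks in the fit, and both Sox18 falls ended with 1 feature a gene. The rise of the Hoxc6 feature in seminal vesicle tumors ended with quantile normalization.

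The tumor change itself differed among the 4 sites for 25 of 47 members by the moderated F test, where 74.1% of all genes passed. The range of the 4 changes was 2.71 for Lhx8 (adjusted p = 1.491e-08), 2.15 for Gata2 (1.639e-06), 2.03 for the Hoxc6 feature (9.773e-10; 2.04 for Mfge8), 1.75 for Foxf1 (1.589e-05) and 1.17 for Foxk2 (9.54e-09). Sox12, Sox18, Foxa3, Hoxd10 and Hoxb9 completed the 10 with the smallest p, with ranges of 0.83 to 1.13. The range of Sox18 was 0.55 with 1 feature a gene, against 1.04. A change was set against the mean of the other 3 sites to see where it lay. In the prostate 17 members differed (9 higher, 8 lower; background 47.1%, of which 25.3% higher and 21.9% lower), and in the seminal vesicle 17 (10 higher, 7 lower; 45.2%, of which 24.5% higher and 20.7% lower). In the mammary gland 12 differed (9 higher, 3 lower; 38.6%, of which 18.1% higher and 20.5% lower), and in the lung 11 (3 higher, 8 lower; 28.6%, of which 12.1% higher and 16.5% lower). These contrasts share arrays and are not independent of each other.

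The Lhx8 fall in the prostate exceeded the mean change elsewhere by 2.40 ± 0.24 in the downward direction (-2.40, adjusted p = 1.174e-09). The prostate changes of Foxk2, Hoxb13 and Gata2 lay above the mean change elsewhere, by 1.11 ± 0.11 (adjusted p = 8.953e-10), 1.48 ± 0.43 (adjusted p = 0.004669) and 1.32 ± 0.24. Gata2 changed by 0.63 in the prostate, a call lost without tumor 1, and it fell in seminal vesicle (-0.69) and lung tumors. The Hoxa10 change in the prostate lay 1.42 ± 0.45 below the mean change elsewhere (-1.42, adjusted p = 0.009351). In the seminal vesicle Hoxa10 differed the other way (1.31 ± 0.44), and Hoxb13 was lower relative to the other sites (-1.18 ± 0.42, adjusted p = 0.02115). In the lung Foxf1 changed by -1.59 ± 0.25 relative to the other sites (adjusted p = 1.12e-05) and Gata2 by -1.54 ± 0.25 (adjusted p = 2.485e-05). In the mammary gland the Foxk1 rise exceeded the mean change elsewhere by 0.99 ± 0.30, with the disagreement of its features given above. It was not particular to that site, as Foxk1 changed by 1.21 in mammary and 1.13 in seminal vesicle tumors. Its features read -0.34 and 0.03 in prostate tumors and -0.45 and -0.16 in lung tumors.

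Known partners of these factors were read from lists chosen with earlier results in view. Of 39 partner genes measured, 11 rose and 10 fell in prostate tumors, where 29.2% of all genes rose and 32.2% fell. In seminal vesicle tumors 11 rose and 7 fell (23.3% and 20.2% of all genes). In mammary tumors 8 rose and 12 fell (16.6% and 20.1%), and in lung tumors 8 rose and 13 fell (16.2% and 20.4%). The counts of single lists below are to be read beside the same shares of all genes. The Pbx, Meis and Pknox genes, cofactors that bind DNA beside Hox proteins, had 4 of 5 higher in prostate tumors, among them Pbx2 (0.64 ± 0.16) and Pbx3 (0.53 ± 0.14), and none called in mammary tumors. Meis2 rose in seminal vesicle tumors (1.58 ± 0.27) and fell in lung tumors (-1.27 ± 0.29), and Meis3 fell in seminal vesicle tumors (-0.84 ± 0.09).

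Eya1 and Eya2, phosphatases that act with Six4 and its relatives, rose in lung tumors by 1.33 ± 0.25 and 1.39 ± 0.27, while Six4 itself read -0.05 ± 0.21 there. Lmo2, a LIM protein that works with Gata factors and Ldb1, fell in all 4 sites, by 1.53 in prostate, 0.43 in seminal vesicle, 1.04 in mammary and 1.18 in lung tumors on the log2 scale. Ldb2 fell in lung (-1.48 ± 0.17) and mammary tumors (-0.65 ± 0.17) and rose in seminal vesicle tumors (0.47 ± 0.15). Tle5, a short Groucho family protein, fell in prostate (-0.85 ± 0.26), mammary (-0.94 ± 0.28) and lung tumors (-1.74 ± 0.28). Zfpm2, a Gata cofactor, fell in lung tumors (-0.61 ± 0.18).

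Suz12, a subunit of the Polycomb complex that methylates histones at silent Hox genes, rose in all 4 sites: by 1.84 ± 0.19 in prostate, 0.56 ± 0.18 in seminal vesicle, 1.14 ± 0.20 in mammary and 1.5 ± 0.20 in lung tumors. Ash2l, a subunit of the activating trithorax complexes, also rose in all 4 (0.40 to 0.64), and Kmt2a in prostate tumors (0.61 ± 0.11). Of the 10 measured Polycomb and trithorax genes, 5 rose and 2 fell in prostate tumors, 5 rose and none fell in seminal vesicle tumors, 4 rose and 4 fell in mammary tumors, and 3 rose and 2 fell in lung tumors. The genes that fell were Cbx7 (-0.68 ± 0.15) and Ring1 (-0.30 ± 0.10) in the prostate, Cbx7, Ezh1, Phc1 and Ring1 (-0.49 to -0.40) in the mammary gland, and Phc1 (-0.64 ± 0.16) and Phc2 (-0.31 ± 0.12) in the lung, all subunits of Polycomb complexes. In the retinoic acid pathway, an inducer of Hox genes in the embryo, Aldh1a1, a retinal dehydrogenase, fell by 3.13 ± 0.19 in prostate tumors on the log2 scale, by 0.79 ± 0.20 in mammary and by 0.86 ± 0.20 in lung tumors. Crabp1 rose in prostate (1.42 ± 0.34) and fell in seminal vesicle tumors (-1.16 ± 0.33), Crabp2 rose in mammary tumors (1.77 ± 0.17), and the receptor Rarb rose in lung tumors (1.08 ± 0.23). These values stand beside those of the members without a test of any link.

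On the direct arrays 37 members were tested in each of the 8 mammary models, by the mean log2 ratio of tumor over normal against 0. The 11 members with no value there were Foxa2, Gata6, Hoxa2, Hoxa5, Hoxb7, Hoxb13, Hoxc8, Hoxd9, Lhx8, Sox4 and Sox17. Tumor RNA always carried Cy5 and normal gland Cy3, so a dye bias of a spot does not cancel, and the test leaves out the spread of normal gland itself. The median of all genes was far from 0 in several models and is given with each count. In the p53-/- transplants 6 members passed (5 higher, 1 lower), where 14.4% of all genes did (5.96% higher, 8.43% lower) and the median of all genes was -0.04. In p53fp/fp;WAP-cre 8 passed (6 higher, 2 lower; background 22.7%, of which 11.5% higher and 11.2% lower; median of all genes -0.07). In Brca1 Co/Co;MMTV-cre;p53, called the Brca1 model below, 20 passed (18 higher, 2 lower; 46.9%, of which 34.9% higher and 12.1% lower; median 0.24). In C3(1) 17 passed, all higher, where 46.2% of all genes passed (41.8% higher, 4.33% lower) and the median was 0.35. In MMTV-her2/neu 5 passed (3 higher, 2 lower; 17.5%, of which 9.38% higher and 8.17% lower; median -0.03). In MMTV-myc 8 passed, all higher (23.5%, of which 20.8% higher and 2.72% lower; median 0.21), and in MMTV-ras 7, all higher (20.2%, of which 17.2% higher and 2.98% lower; median 0.18). In MMTV-PyMT 5 passed, all higher (21.2%, of which 12.7% higher and 8.5% lower; median -0.05). After each array was centred on its median the splits became 12 higher and 3 lower in the Brca1 model (26.2% and 21.2% of all genes), 10 and 3 in C3(1) (22.4% and 19.5%), 6 and 3 in MMTV-myc (12.2% and 10.9%), 2 and 3 in MMTV-ras (9.97% and 8.89%) and 9 and 1 in MMTV-PyMT (18.3% and 12% of all genes). In all, 9 members passed in no model, as did 22% of the 5768 genes tested in every model.

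Sox10 was the 1 member higher in all 8 models, as were 0.936% of all genes. Its mean log2 ratios were 2.13 in p53-/- transplants, 2.40 in p53fp/fp;WAP-cre, 1.98 in the Brca1 model, 1.48 in C3(1), 1.94 in MMTV-her2/neu, 2.36 in MMTV-myc, 2.10 in MMTV-ras and 1.55 in MMTV-PyMT, with standard errors of 0.32 to 0.41 and adjusted p of at most 0.0004373. Every array with a value read above 0, from 0.29 and 0.91 in the Brca1 model, whose others read 3.98, 2.59 and 2.12, to narrow groups such as MMTV-myc at 2.49, 2.48, 2.37 and 2.09. The p53-/- transplants read 2.12, 1.46, 2.18, 2.86 and 2.05, and the C3(1) tumors 2.22, 1.61, 0.79, 0.82 and 1.97. The means did not pass the test of a difference among models (range 0.92). With each array centred on its median the means ran from 1.15 to 2.60, and all 8 passed.

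The C3(1) model was also measured against the reference RNA, and there Sox10 did not pass. It read 0.54, 0.70, 0.91 and 1.47 in mammary tumors, against 0.66, 0.79, 0.77 and 1.12 in normal gland (0.07 ± 0.16). For the array as a whole the C3(1) changes of both sets correlated at r = 0.498 over 5752 genes. Whether the direct values of Sox10 carry a dye bias of its spot was not tested. Foxd3, a neural crest gene, likewise passed in 7 of the 8 models (0.48 to 0.92; not in MMTV-PyMT, 0.40) and in none of the 4 reference comparisons, where its mammary change was -0.22. In MMTV-ras (0.48) the Foxd3 call ended without any of 4 arrays and after centring (0.30), and after centring it passed in MMTV-PyMT (0.42).

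Gata2 divided the models. It read -1.06, -0.66, -0.75, -0.59 and -0.60 in p53-/- transplants (-0.73 ± 0.16), -0.62, -1.09 and -1.19 with 1 missing array in p53fp/fp;WAP-cre (-0.97 ± 0.21), and -0.49, -0.47, -0.92, -0.81 and -0.37 in MMTV-her2/neu (-0.61 ± 0.16). In the Brca1 model it read 1.37, 0.09, 0.38, 0.82 and 1.12 (0.76 ± 0.16). No array of those 3 models reached the lowest array of the Brca1 model, and the test among models gave an adjusted p of 2.234e-05 with a range of 1.72.

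Foxk2 read 2.23, 1.39, 1.55, 0.88 and 1.01 in the Brca1 model (1.41 ± 0.20, adjusted p = 4.588e-07) and 1.95, 0.39, 0.75 and 0.57 in p53fp/fp;WAP-cre (0.91 ± 0.22). The rise in p53fp/fp;WAP-cre did not pass without array 1 (0.57). In MMTV-her2/neu it read -0.66, -0.72, -0.47 and -0.31 with 1 missing array, and did not pass. The range over models was 1.95 (adjusted p = 3.017e-05), and Foxk2 did not pass in the other 6 models.

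Several members passed in both the Brca1 and the C3(1) model. The adjusted p beside each is that of the test among all 8 models. Foxn1 was higher by 1.28 ± 0.22 in the Brca1 model, 1.29 ± 0.22 in C3(1), 0.78 ± 0.22 in MMTV-ras and 1.15 ± 0.22 in MMTV-PyMT (adjusted p = 0.0009678), and its MMTV-ras call ended without array 3 or 4. Dlx5, a gene of limb and bone with a role in mammary stroma, was higher by 0.94 ± 0.20 in the Brca1 model and 1.20 ± 0.20 in C3(1) (adjusted p = 0.0003858). Sox12 was higher by 1.11 ± 0.17 in the Brca1 model, 0.98 ± 0.17 in C3(1), 0.47 ± 0.17 in MMTV-ras and 0.89 ± 0.17 in MMTV-PyMT (adjusted p = 0.0003645). After centring Sox12 came to 0.65 in C3(1) and did not pass in MMTV-ras (0.29). Hoxb4, a gene of blood stem cells, was higher by 0.88 ± 0.15 in the Brca1 model, 0.71 ± 0.15 in C3(1) and 0.75 ± 0.17 in MMTV-myc (adjusted p = 0.0002378). Foxf1 passed in 5 models with the largest value in C3(1) (1.11 ± 0.17; adjusted p among models 0.0006001). The Foxf1 calls in MMTV-ras and the Brca1 model ended after centring (0.36 and 0.26), that in MMTV-ras also without array 3 or 4, and that in MMTV-PyMT without array 1 or 5. Sox6 was lower in p53fp/fp;WAP-cre (-0.89 ± 0.20) and higher in C3(1) (0.52 ± 0.18; 0.19 and no call after centring), and the Brca1 model added Dlx1 (0.82 ± 0.15).

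Foxk1 was higher in 4 models: p53-/- transplants (0.96 ± 0.22), p53fp/fp;WAP-cre (1.19 ± 0.25), the Brca1 model (0.59 ± 0.22) and C3(1) (0.90 ± 0.22). Its features read 1.63 and 0.28 in p53-/- transplants and 2.17 and 0.20 in p53fp/fp;WAP-cre, and with 1 feature a gene both of these calls ended. In C3(1) they read 0.59 and 1.21, the opposite order, and the mean came to 0.57 after centring, which also ended the call in the Brca1 model (0.40). Foxa3 was higher in 6 models by 0.46 to 0.64. With each array centred on its median it passed in 2 of them, the p53-/- transplants (0.52) and p53fp/fp;WAP-cre (0.63), and its MMTV-ras value became 0.38. Its call in the transplants ended without array 1, 2 or 4 and with array number blocks as a random effect, and that in MMTV-ras without array 3. In MMTV-myc Foxa1 (0.77 ± 0.20) and Hoxb2 (0.66 ± 0.19) were higher, in MMTV-ras Six4 (0.79 ± 0.23), and in MMTV-PyMT Hoxc4 (0.57 ± 0.20), and each of these lost its call without at least 1 array. The Foxa1 and Six4 calls also ended after centring. Hoxa10 was lower in MMTV-her2/neu (-0.70 ± 0.23), a call lost without any of 4 arrays.

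The Hoxc6 feature was higher in p53-/- transplants (1.22 ± 0.34), p53fp/fp;WAP-cre (1.64 ± 0.39), MMTV-her2/neu (1.43 ± 0.34) and MMTV-myc (1.82 ± 0.39), where Mfge8 was higher by 0.95, 1.45, 1.59 and 2.13. Arrays differed widely within 2 of these models, at 0.49, 2.29, 0.22, 2.07 and 1.02 in the transplants and 0.20, 0.36, 3.15 and 2.86 in p53fp/fp;WAP-cre. The call in the transplants ended without array 2 (0.95) or array 4 (1.00), and that in p53fp/fp;WAP-cre without array 3 (1.14). The test among models gave a range of 2.10 (adjusted p = 0.009277). In all, 17 of 37 members differed among the 8 models, where 41.9% of all genes passed. Of the 30 partner genes measured here, 14 were higher and 1 lower in the Brca1 model, where 34.9% and 12.1% of all genes were. In C3(1) 13 were higher and 1 lower (41.8% and 4.33% of all genes). Each of the others had from 3 to 6 higher and 0 to 2 lower (5.96% to 20.8% and 2.72% to 11.2% of all genes). Skeletal muscle markers were lower for 9 to 13 of 13 genes and adipocyte markers for 6 to 9 of 9 in every model. Epithelial markers were higher for 1 to 6 of 7 genes in every model, with list medians of 0.86 in the p53-/- transplants to 1.53 in C3(1), and proliferation genes for 1 to 4 of 4. Myeloid markers were higher for 3 of 5 genes in p53fp/fp;WAP-cre, the Brca1 model and C3(1). These shifts stand beside the members called higher, Sox10 among them, and their part in those values was not tested.

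**Figure D5:**
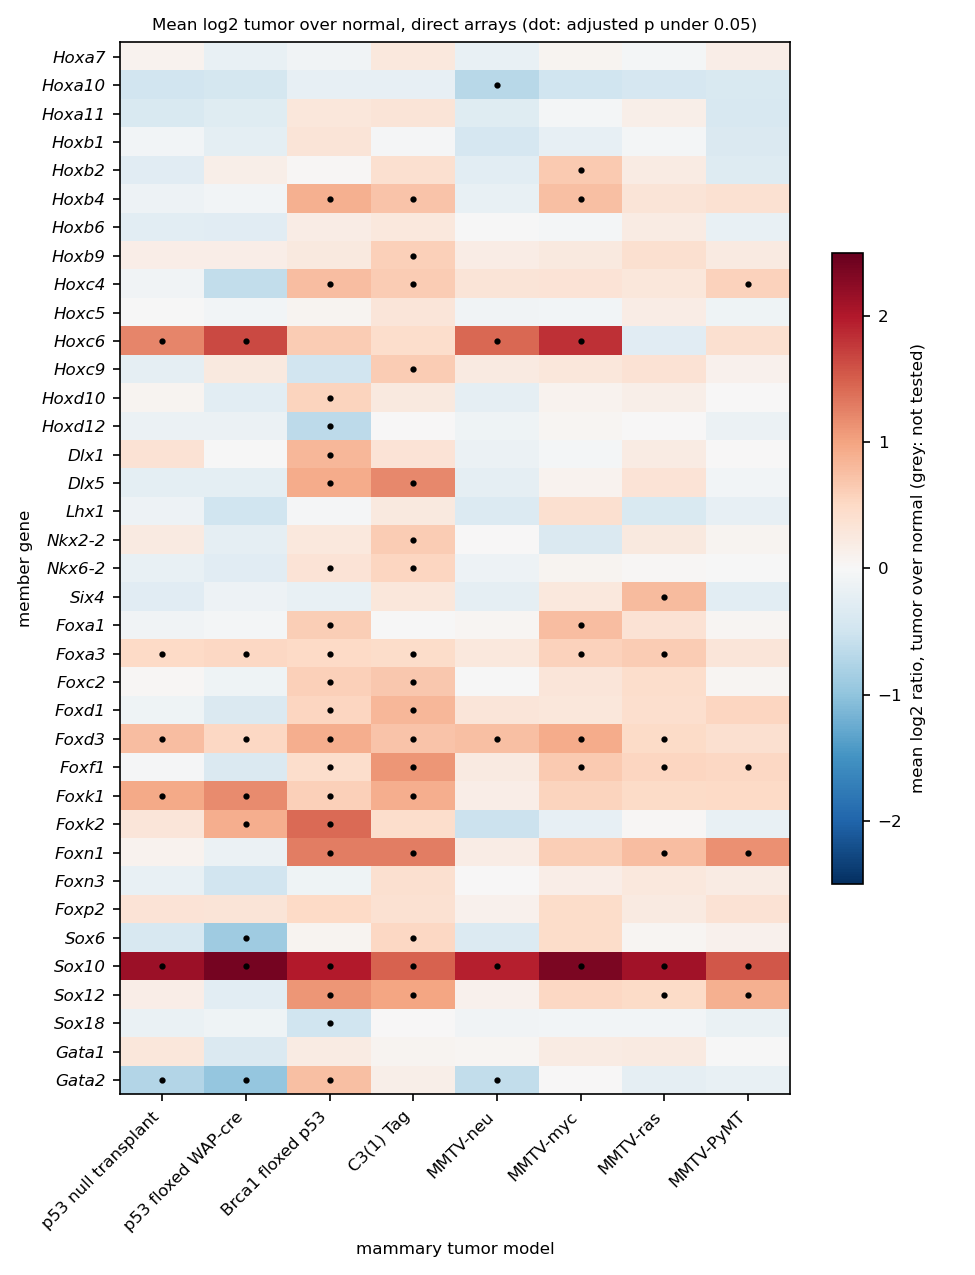
Mean log2 ratio of tumor over normal mammary gland (colour, red for higher in tumor and blue for lower) of the 37 members tested (rows) in the 8 mammary tumor models (columns), with a dot where the adjusted p was under 0.05. Sox10 is red and dotted in all 8 columns, and the Brca1 and C3(1) columns hold the most dots, 20 and 17, as they do for all genes.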

How the data were processed

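The deposited values are log2 ratios on dual-channel cDNA arrays, 1 per feature and array. Neither the base of the logarithm nor the direction of the ratio is stated in the file, and the normalization is not given in the sources used here. The study's threshold (unadjusted p under 0.001 and 2-fold) was applied to the difference in tumor change among the sites, by an F test and the range of the changes. Read as log2, 2632 of 9532 features met it, against 3764 as natural logarithms and 4168 as log10. These counts alone do not settle the base. Per the labels, the reference arrays carried the sample in Cy3 and universal reference RNA in Cy5, and the direct arrays tumor in Cy5 and normal gland in Cy3. Values were read as sample over reference and as tumor over normal, and the C3(1) change on the direct arrays correlated with that on the reference arrays at r = 0.498. Arrays held 7042 to 9572 values, with medians of -0.05 to 0.01 on the reference and -0.42 to 0.66 on the direct arrays.

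Features of a gene were averaged. limma 3.58.1 in R 4.3.3 fitted 8 group means to each set (lmFit, eBayes), with at least 3 values a group and Benjamini-Hochberg adjustment over all genes, and a call is an adjusted p under 0.05. The procedure was tested on simulated data with 200 changed genes. Named are up to 20 called members by absolute change for each site, up to 6 for each model, up to 10 by p for the differences among sites and among models, and up to 6 for normal tissues. The members, lists and rules were chosen with earlier results of these data known. Alternatives were centring, quantile normalization, 1 feature a gene, complete values, blocks of neighbouring array numbers, replicate blocks, fits of 2 groups, the study's threshold and each array left out. The count without the Hoxc6 feature, and the members named as having no call, were chosen after seeing the data.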

Additional observations from a re-analysis of the deposited data

Results flagged for a closer look

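A single array stood far from the others of its group, by Dixon's criterion, in 4 of 54 groups examined, where chance gives about 1 in 20. Hoxa10 read 2.00 in prostate tumor 1, while the other 4 prostate tumors read -1.56 to -0.95. Foxk1 read -2.73 in seminal vesicle normal 4, Hoxd9 read -0.013 in mammary normal 2, and Foxa2 read 1.59 in lung tumor 3. The cause of these values was not tested.

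The tumor change differed among the 4 sites, by the moderated F test, with the difference between the highest and the lowest site given in log2 units. It was 2.71 for Lhx8, 2.15 for Gata2, 2.03 for the Hoxc6 feature, 1.75 for Foxf1, 1.17 for Foxk2, 1.13 for Hoxd10, 1.09 for Foxa3, 1.04 for Sox18 (0.55 with 1 feature a gene), 0.87 for Sox12 and 0.83 for Hoxb9. Lhx8 was lowest in the prostate, where skeletal muscle genes averaged -0.15 to 0.11 in tumors and 3.65 to 4.57 in normal tissue.

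The direct ratio differed among the 8 mammary models by the same kind of test. The largest difference between models was 2.10 for the Hoxc6 feature, 1.95 for Foxk2, 1.72 for Gata2, 1.48 for Foxf1, 1.44 for Dlx5, 1.43 for Foxn1, 1.41 for Sox6, 1.37 for Sox12, 1.06 for Hoxb4 and 0.96 for Dlx1.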

How the results depend on the processing

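Array number limits the precision, with 4 to 6 arrays a group, and no signal over background was used here. Quantile normalization gave 5 members in place of 13 in seminal vesicle tumors, 16 in place of 25 in normal seminal vesicle, 13 in place of 6 in p53-/- transplants, 10 in place of 5 in MMTV-her2/neu, 13 in place of 7 in MMTV-ras and 13 in place of 5 in MMTV-PyMT, where centring gave 10. Blocks of neighbouring array numbers as a factor gave 6 in seminal vesicle tumors and 14 in normal seminal vesicle, and, for a site's change against the others, 4 in seminal vesicle, 4 in mammary gland and 6 in lung. They turned Hoxb2 in seminal vesicle tumors to 0.012, and within 1 block Hoxc5 in prostate tumors came to 0.015. The study's threshold, an unadjusted p under 0.001 with at least 2-fold change, was here applied to the change at each site. It left 6 members in prostate, 1 in seminal vesicle, 1 in mammary and 2 in lung tumors. Requiring a value on every array left 7 members that differed among models. The cause was not tested, except that the last 2 settings are stricter or test fewer genes by construction.

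Among mammary tumors on the reference arrays the split became 4 higher and 7 lower with centring and 6 and 11 with quantile normalization, against 3 and 9. In normal seminal vesicle it became 15 and 6, and 12 and 4, against 15 and 10. Quantile normalization gave 12 higher and 0 lower in C3(1) and 10 and 3 in MMTV-ras.

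With 1 array left out, counts ran from 18 to 21 in prostate, 10 to 14 in seminal vesicle, 9 to 13 in mammary and 15 to 18 in lung tumors, and from 23 to 27 for the difference among sites. For a site's change against the others they ran from 14 to 19, 13 to 19, 9 to 13 and 8 to 14 in the same order of sites. For normal tissues they ran from 29 to 34 for the difference among them, and 18 to 22, 19 to 25, 17 to 21 and 12 to 16 in that order. On the direct arrays they ran from 4 to 6 in p53-/- transplants, 16 to 21 in the Brca1 model, 13 to 18 in C3(1), 4 to 5 in MMTV-her2/neu and 12 to 19 for the difference among models. The count in p53fp/fp;WAP-cre was 3 to 5 against 8, with 3 without array 3 and 4 without array 4. It was 5 to 9 in MMTV-myc (5 without array 1), 2 to 8 in MMTV-ras (2 without array 3 or 4) and 3 to 5 in MMTV-PyMT (3 without array 1 or 5).

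Tumors and normal tissues with the same replicate number were not treated as pairs. The correlation of their deviations ran from -0.244 to 0.224. It was not set against that of other pairs, so it cannot show whether they were paired. With the replicate block the counts were 20 in prostate, 11 in seminal vesicle, 12 in mammary and 19 in lung tumors, and 28 for the difference among sites. Blocks of array numbers as a random effect on the direct arrays had a correlation of 0.213. Each result of a named member was counted once under each setting other than leaving out an array. Of these, 798 kept the call, 129 lost it and 2 turned in direction. The F tests are among them, and for those no direction was read.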
